A study of Mus musculus with 10 samples.

Results

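Phase II conjugating enzymes attach a polar group to drugs, hormones, bile acids and reactive compounds. Their genes were taken as every array gene whose name begins with Ugt1 or Ugt2, Sult and a digit, Gst with a class letter and a digit, Mgst and a digit, or Nat1, Nat2 or Nat8. This gave 70 genes on 98 probes, of 25160 named genes and 56605 probes on the array, chosen by name and not by any measured value. They comprise the UDP-glucuronosyltransferases (UGT1 and UGT2), the cytosolic sulfotransferases (SULT), the glutathione S-transferases (GST, with the membrane-bound MGST), and the N-acetyltransferases (NAT). The name pattern also took in 3 genes outside xenobiotic conjugation: Nat10, which acetylates RNA, Nat8l, which makes N-acetylaspartate in neurons, and Nat14, whose substrate is not well known.

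RNA was measured on 10 Agilent 2-colour arrays, 4 with mouse colon tissue and 6 with mouse colon organoids, which are gel cultures of colon epithelium. The tissue arrays compared 2 pairs of male mice, a mouse without p53 (KO) against a mouse with p53 (WT). Both pairs were run in each of the dye arrangements. The KO was made by tamoxifen injection in Axin2CreERT2 mice crossed to Trp53 fl/fl, so that recombination starts only in cells that express Axin2, a gene of Wnt-responding stem cells. All of these mice, WT included, drank 2% dextran sodium sulfate (DSS), a compound that damages the colon lining, over 5 to 7 days. Their colons were collected 2 months later. Ages and the alleles of the WT mice are not given in the sources used here. The organoid arrays linked 6 samples in a ring, 2 each of WT, KO and KOWI. KO organoids came from VillinCreERT2 x Trp53 fl/fl colon, where Villin drives Cre throughout the gut epithelium, exposed to 4OH-tamoxifen (800 nM, 2 days) and then selected with Nutlin-3A, which arrests cells that still have p53. KOWI are KO organoids, named Wnt-independent in the labels, kept without surrogate Wnt and without CHIR, a GSK3 inhibitor that activates Wnt signalling. Full medium held surrogate Wnt at 0.328 nM, CHIR at 3 µM, R-spondin conditioned medium at 25%, noggin at 100 ng/ml, EGF at 50 ng/ml and N-acetylcysteine at 1.25 mM. KO against WT therefore joins the loss of p53 and the selection, and KOWI against WT joins the medium to these. Alleles of the WT organoids, and whether they had 4OH-tamoxifen, are not stated here, so Cre and tamoxifen may differ too. These factors cannot be told apart. Cy3 marked replicate 1 and Cy5 replicate 2 of each organoid group, so replicate and dye cannot be told apart. The series text calls the organoid replicates independent, but no label says that they came from separate mice, so the p-values measure the spread between these samples.

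In the gut epithelium, UGT enzymes transfer glucuronic acid from UDP-glucuronate inside the endoplasmic reticulum, and SULT enzymes transfer sulfate from PAPS in the cytosol. GST enzymes join glutathione to electrophiles, and NAT1 and NAT2 acetylate aromatic amines. The UGT1 genes share their last exons and differ in a first exon, each with its own start, whereas each UGT2B gene is a separate copy in a tandem cluster. Many of these genes are most active in mature absorptive cells, and GST genes are classical targets of the stress-response factor NRF2.

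The sequences that bear on the values below are shown first. Ugt2b5, Ugt2b37 and Ugt2b38 lie on the minus strand of chromosome 5 and moved together in the organoids. The 250 bases upstream of their starts, from RefSeq on GRCm38.p6, cover chr5:87140341-87140590, chr5:87254789-87255038 and chr5:87424204-87424453 in that order. Capitals mark the longest run that the 3 promoters share, 62 bases.
Ugt2b5: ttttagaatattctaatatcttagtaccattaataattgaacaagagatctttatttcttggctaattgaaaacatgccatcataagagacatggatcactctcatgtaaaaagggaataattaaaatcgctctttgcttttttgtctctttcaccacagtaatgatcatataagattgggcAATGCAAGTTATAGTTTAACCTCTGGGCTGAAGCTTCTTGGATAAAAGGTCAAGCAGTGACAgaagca
Ugt2b37: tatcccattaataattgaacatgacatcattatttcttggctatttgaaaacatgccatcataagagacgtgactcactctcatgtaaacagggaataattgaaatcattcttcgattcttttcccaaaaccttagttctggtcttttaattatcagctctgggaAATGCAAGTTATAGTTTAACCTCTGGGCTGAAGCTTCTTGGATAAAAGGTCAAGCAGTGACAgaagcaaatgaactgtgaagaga
Ugt2b38: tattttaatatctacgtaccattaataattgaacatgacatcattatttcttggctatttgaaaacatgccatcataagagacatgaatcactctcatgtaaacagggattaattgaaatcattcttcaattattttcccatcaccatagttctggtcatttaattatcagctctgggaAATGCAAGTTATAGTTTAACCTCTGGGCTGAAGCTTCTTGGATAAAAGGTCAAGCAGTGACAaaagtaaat
That run occurs in 3 of the 32851 promoters of the table, these 3, and in none of the other 6 UGT2 promoters. Ugt2b37 and Ugt2b38 were identical at 94.9% of 236 aligned bases, Ugt2b37 and Ugt2b5 at 88.1%, and Ugt2b38 and Ugt2b5 at 88.3%. All other pairs of UGT2 promoters lay between 66.7% and 79.8%.

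The array probes of Ugt2b37 and Ugt2b5 resemble each other too. Below are 30 aligned bases of the Ugt2b37 probe (mm9 chr5:87669707-87669766) and of the Ugt2b5 probe (mm9 chr5:87554155-87554214), with the 6 differing bases in capitals.
Ugt2b37 probe: AatttatgaGccaccttctaaacactGATT
Ugt2b5 probe: TatttatgaAccaccttctaaacactTGAC
Over the 55 bases where the 2 probes overlap, 46 were identical (83.6%), so some RNA of one gene may bind the probe of the other. Whether it did was not tested.

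Of the 70 genes, 38 were above background in both tissue and organoids, 3 in tissue alone (Nat14, Nat8l and Sult1e1), 9 in organoids alone and 20 in neither. A gene counts as above background where the scanner software marked its probe so in all channels of 1 group or more. The organoid-only genes were Ugt1a6a, Ugt2a1, Ugt2b5, Ugt2b36, Ugt2b37, Ugt2b38, Sult5a1, Gstm7 and Nat8f5. The 20 not well above background in either were Sult2a1 to Sult2a7, Sult3a1, Sult3a2, Sult6b1, Sult6b2, Sult1c1, Ugt1a8, Ugt2a3, Ugt2b1, Ugt2b35, Gstt4, Nat1, Nat8f3 and Nat8f6. The SULT2A genes, the bile acid and steroid sulfotransferases of liver, were thus dim in both experiments except Sult2a8, and probes for Sult2a1, Sult2a2 and Sult2a4 share 88.7% to 94.4% of their overlapping bases. A gene was tested where its spots also had enough values left after outlier spots were dropped, which left 40 genes in tissue and 36 in organoids. In organoids 23 genes were dim and 11 lost too many spots; in tissue 29 were dim and 1, Sult1c2, lost spots. Of the 36, Nat8f5, Ugt1a6a, Ugt2b37 and Ugt2b38 passed only because they were above background in WT. A gene admitted in that way can hardly come out higher in KO or KOWI, so counts of direction over tested genes are not evidence of direction. In tissue the same holds for Gstm4, Gstp3, Nat14 and Sult2a8.

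Across the array, the share of spots above background ran from 44.6% to 59.1% by channel. Outlier spots were 0.808% to 4.41% of spots on the arrays without KOWI and 13.7% to 16.3% on the 4 arrays with KOWI. The targeted gene Trp53 had log2 KO over WT ratios of -1.07 and -0.59 in organoids and -0.46 and 0.04 in tissue; whether its probe lies in the deleted exons was not checked. Levels below are log2 intensities of 1 probe after normalisation and are compared only within that probe.

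Of the 36 members tested, 6 passed the threshold as lower in KOWI than in WT organoids, and none passed as higher. Mean ratios of 9 members were positive, none past the threshold. The 6 were the sulfotransferase Sult1b1, the glucuronosyltransferases Ugt1a6b, Ugt2b5, Ugt2b37 and Ugt2b38, and Nat8f5, a relative of the cysteinyl-conjugate acetyltransferase Nat8. They were 2.41-fold to 9.87-fold lower. No GST or MGST gene passed the threshold, a limma p of 0.05 after Benjamini-Hochberg adjustment over all genes. The 6 were 16.7% of 36 members tested, beside 5.41% of all 11334 genes tested (2.05% lower and 3.36% higher). Of the 6, Nat8f5, Ugt2b37 and Ugt2b38 are among the genes that were tested only because WT was above background, so this share is not evidence of a direction. The median log2 ratio was -0.28 over the members and 0.02 over all genes. The count of 6 depended on single samples and was lower in most fits that left 1 out. Those fits tested only 28 to 31 members and left 1 sample in a group, and most of them called fewer of all genes. Without the replicate number in the model the count was 2, Sult1b1 and Ugt1a6b, where 3.99% of all genes passed. It was 0 with outlier spots kept or with the deposited ratios, where 6 and 4 of all genes passed.

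**Figure D1:**
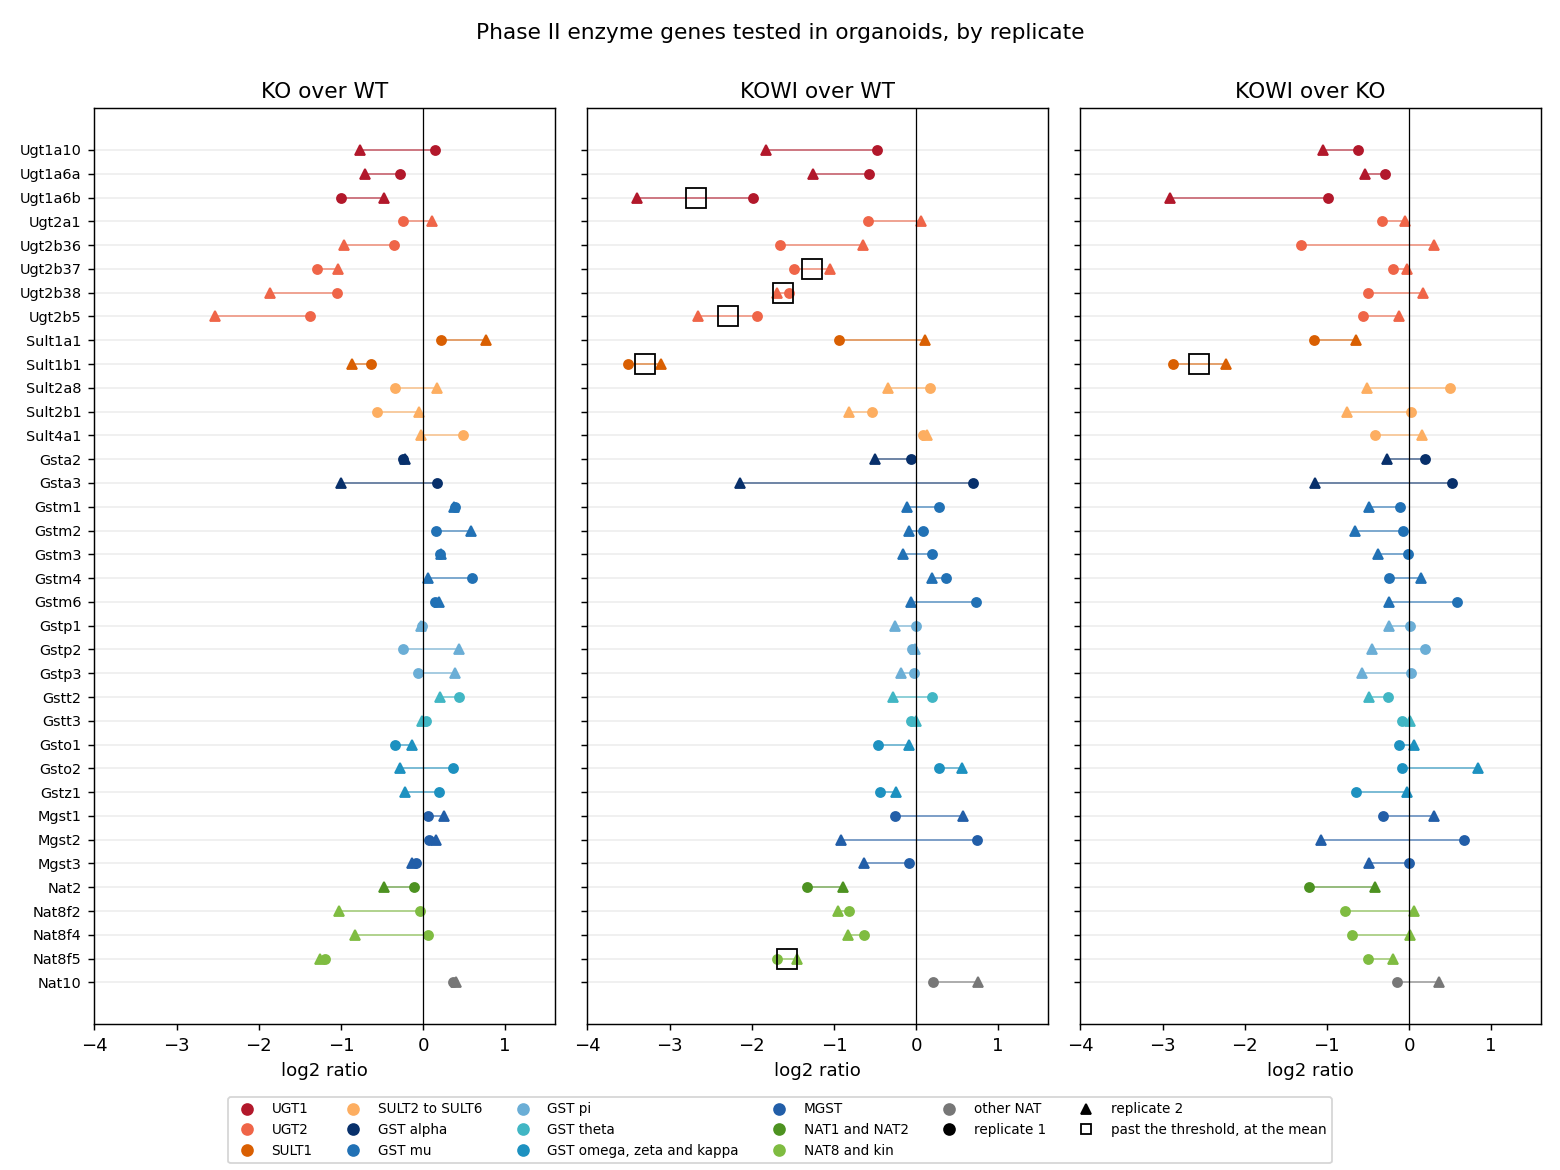
Log2 ratios of the 36 phase II genes tested in organoids, by replicate (circle, replicate 1; triangle, replicate 2), coloured by enzyme family. Open squares mark the mean of genes past the threshold: 6 in KOWI over WT, all lower, 1 in KOWI over KO and none in KO over WT. KO over WT and KOWI over WT share the WT samples, and KOWI over KO shares the KO and KOWI samples with them.

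Of the UGT1 genes, Ugt1a6b stood for the phenol-conjugating enzyme UGT1A6. Its level was 15.62 and 15.45 in WT, 14.62 and 14.97 in KO, and 13.64 and 12.06 in KOWI. At this probe, the KOWI samples were both below the KO samples, which were both below the WT samples. Ugt1a6b fell by 1.98 and 3.39 on the log2 scale in KOWI against WT, a 6.42-fold difference (mean -2.68, SE 0.45, n = 2, limma adjusted p = 0.0377); 1 of the 6 arrays had no value for it. Against KO the values were -0.98 and -2.91 (limma adjusted p = 0.141), and KO against WT gave -1.0 and -0.48 (limma adjusted p = 1).

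That value came from the brightest probe, and the other probes of Ugt1a6b gave smaller ratios. The first bases of the 3 probes are shown in order of brightness, all in lower case since no base is singled out.
Ugt1a6b probe 1: accaaagtatgttctaaggcaagtacatct
Ugt1a6b probe 2: agtggtcttcattgtctttaaatgttgtgc
Ugt1a6b probe 3: tccttacaccagaattctctgtggctgtta
Probe 1 (mm9 chr1:90115493-90115552) is listed for 4 genes, Ugt1a6a, Ugt1a6b, Ugt1a7c and Ugt1a8, so its signal cannot be assigned to one of them. Probe 2 (mm9 chr1:90114900-90114959) lies 0.593 kb upstream and is listed for Ugt1a6b and Ugt1a8. Probe 3 (mm9 chr1:90004249-90004308) lies 111 kb upstream and is listed for Ugt1a6b alone. With outlier spots kept so that all arrays count, KOWI over WT was -2.06 and -3.23 at probe 1, -0.30 and -0.57 at probe 2, and -0.61 and -1.24 at probe 3. All 3 probes were lower in both replicates, by very different amounts, and probe 1 and probe 2 differed most although they lie closest. KOWI over KO was -0.90 and -2.83 at probe 1, 0.07 and -0.13 at probe 2, and -0.53 and -0.65 at probe 3, so the step from KO to KOWI was not seen at probe 2. KO over WT was -1.15 and -0.40, -0.37 and -0.44, and -0.08 and -0.58 in the same order.

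The call for Ugt1a6b held in 5 of 11 alternative settings, always with a negative ratio (log2 -2.89 to -0.92, limma adjusted p from 0.000385 to 0.111). It was lost with the processed signal, the deposited ratios, outlier spots kept, no filter on dim probes, probes under a log2 intensity of 14, and without KOWI replicate 2. In the setting limited to probes under 14 the ratio was -0.92, and averaged over the probes it was -1.23 (limma adjusted p = 0.0458).

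The other UGT1 genes tested were dimmer. Ugt1a10, a gut isoform, had levels of 9.58 and 10.61 in WT, 9.73 and 9.84 in KO, and 9.11 and 8.79 in KOWI. Its KOWI over WT ratios were -0.47 and -1.82 (limma adjusted p = 0.118). Ugt1a6a, the close copy of Ugt1a6b, stood at 7.72 and 7.95 in WT, 7.44 and 7.24 in KO, and 7.15 and 6.70 in KOWI. Its KOWI over WT ratio was -0.57 and -1.26 (limma adjusted p = 0.0765). Both probes were lowest in the KOWI samples, and neither passed the test. The Ugt1a10 probe is listed for Ugt1a9 too, and the Ugt1a6a probe for Ugt1a1, Ugt1a10 and Ugt1a7c too. Neither signal can be assigned to a single gene. Ugt1a6a was not well above background in any KOWI channel, so its KOWI levels are bounds only, and it was tested only because WT was above background.

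UGT2B enzymes conjugate steroids and bile acids. Ugt2b5 had levels of 10.48 and 9.84 in WT, 9.12 and 7.30 in KO, and 8.56 and 7.18 in KOWI. Ugt2b38 stood at 9.78 and 9.18 in WT, 8.74 and 7.32 in KO, and 8.24 and 7.49 in KOWI. Ugt2b37 had 8.72 and 7.98 in WT, 7.43 and 6.96 in KO, and 7.23 and 6.93 in KOWI. In each of the 3 genes both KO and both KOWI samples lay below both WT samples, KO and KOWI overlapped, and replicate 2 was below replicate 1 in every group.

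Against WT, KOWI ratios were -1.93 and -2.65 for Ugt2b5 (4.89-fold lower, SE 0.30 on the log2 scale, limma adjusted p = 0.0239). They were -1.55 and -1.69 for Ugt2b38 (3.07-fold lower, SE 0.24, limma adjusted p = 0.031). For Ugt2b37 they were -1.49 and -1.05 (2.41-fold lower, SE 0.19, limma adjusted p = 0.0292). All 3 were called lower in KOWI against WT. Ugt2b37 and Ugt2b38 were tested only because WT was above background, so the filter favoured that direction. KO over WT, which shares the WT samples, gave -1.37 and -2.53 for Ugt2b5, -1.05 and -1.86 for Ugt2b38, and -1.29 and -1.03 for Ugt2b37 (limma adjusted p = 0.362 for each). KOWI over KO was between -0.56 and 0.17 in every replicate of the 3 genes, with adjusted p-values of 0.758, 0.904 and 0.919 in limma. Their calls were not stable. Among 15 alternative settings Ugt2b5 passed in 9, Ugt2b37 in 7 and Ugt2b38 in 5, always with a negative ratio. Without the replicate number in the model none of the 3 passed. Of 4 channels each, Ugt2b37 was above background in 4 of WT, 2 of KO and 2 of KOWI, Ugt2b38 in 4, 3 and 3, and Ugt2b5 in 4, 4 and 3, so the lowest levels lie near background. With the processed signal the KOWI over WT means were -3.40 for Ugt2b5, -2.46 for Ugt2b38 and -2.61 for Ugt2b37, so the sizes of these differences depend on the background correction.

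Ugt2b36 and Ugt2a1 completed the UGT2 genes tested. Ugt2b36 had 9.35 and 9.03 in WT, 9.0 and 8.07 in KO, and 7.69 and 8.39 in KOWI, with KOWI below WT in both replicates (-1.66 and -0.64, limma adjusted p = 0.155). With outlier spots kept, KOWI over WT of Ugt2b36 was -2.38 and 0.82. Its probe is listed for Ugt2b37 too. Ugt2a1, first known from olfactory tissue, differed from WT by -0.59 and 0.06 (limma adjusted p = 0.526). Ugt2b34 lost spots on 4 of the 6 arrays; with these kept, its KOWI over WT ratios were -1.16 and -1.49, and its KO over WT ratios -0.76 and -0.45.

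**Figure D2:**
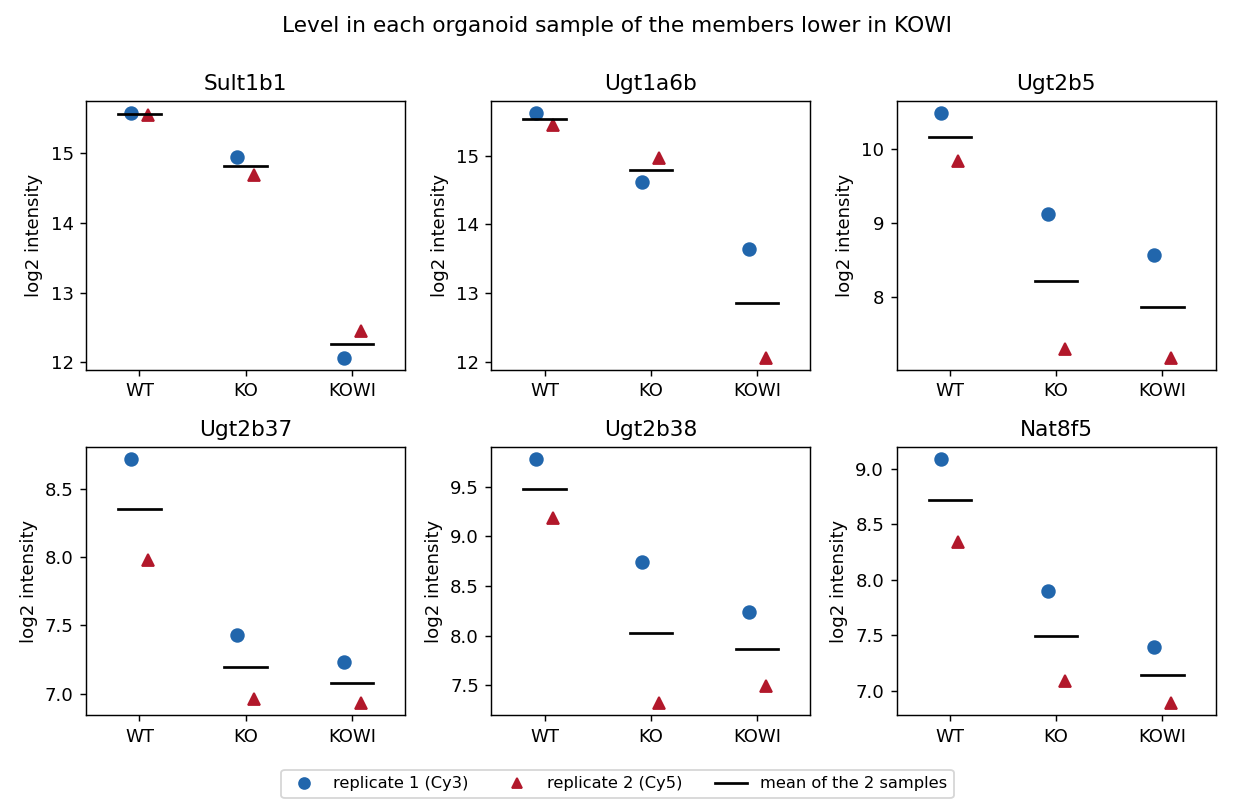
Log2 intensity in each organoid sample of the 6 phase II genes that were lower in KOWI than in WT (circle, replicate 1; triangle, replicate 2; line, mean of 2 samples). Sult1b1 and Ugt1a6b (brightest probe shown) step down from WT to KO to KOWI, whereas KO and KOWI samples overlap in Ugt2b5, Ugt2b37 and Ugt2b38. At Ugt1a6b probe 2 the step from KO to KOWI was not seen, and at probe 3 it was -0.53 and -0.65. Vertical axes differ between panels.

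Sult1b1, a sulfotransferase for phenols and thyroid hormones, had the largest difference among the members. Its level was 15.57 and 15.55 in WT, 14.94 and 14.68 in KO, and 12.07 and 12.45 in KOWI. The KOWI samples lay far below the other 4 samples, and the KO samples lay below WT by less. Sult1b1 fell 9.87-fold in KOWI against WT (log2 -3.50 and -3.10, SE 0.21, limma adjusted p = 0.00829). It also fell 5.86-fold in KOWI against KO, with log2 ratios of -2.87 and -2.23 (limma adjusted p = 0.0252). It was the only member past the threshold in KOWI against KO, 2.78% of 36, where 0.432% of all genes passed (0.265% lower and 0.168% higher). KO against WT gave -0.63 and -0.87 (limma adjusted p = 0.739).

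The 30 first bases of the 2 Sult1b1 probes, brighter first, again carry no marked base.
Sult1b1 probe 1: gagccaaggtcttttgttaccttagttttc
Sult1b1 probe 2: atgtgacccacaatctgatacaacctcaag
They lie at mm9 chr5:87943760-87943819 and chr5:87942561-87942620, minus strand. KOWI over WT was -3.50 and -3.10 at probe 1, and -3.02 and -2.34 at probe 2, so the probes were of like size. The call against WT held in 13 of 15 alternative settings (log2 -3.59 to -2.68). It was lost with the deposited ratios and with outlier spots kept, where the largest adjusted p in limma was 0.0635. The call against KO held in 9 of 15 and was lost with the processed signal, the deposited ratios, outlier spots kept, probes under a log2 intensity of 14, without KO replicate 2 and without KOWI replicate 2 (limma adjusted p up to 0.185).

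**Figure D3:**
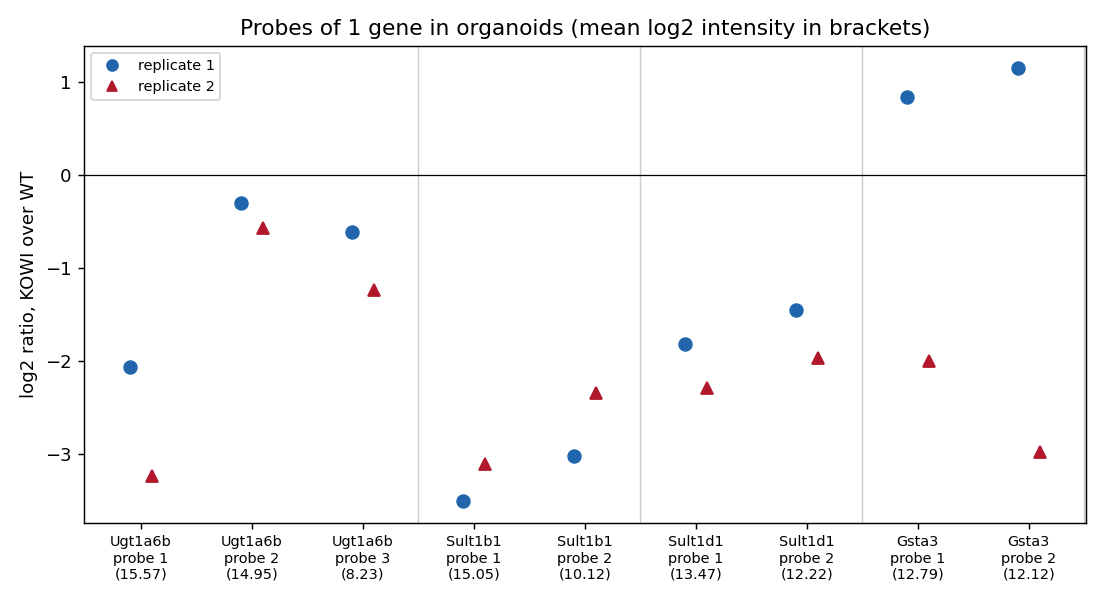
Log2 KOWI over WT in each organoid replicate for every above-background probe of Ugt1a6b, Sult1b1, Sult1d1 and Gsta3, with outlier spots kept and the mean log2 intensity over all arrays in brackets. The Ugt1a6b probes run from -0.30 to -3.23, the Sult1b1 probes from -2.34 to -3.50, and the Gsta3 replicates lie on opposite sides of 0.

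Sult1a1, the main phenol sulfotransferase, did not show that pattern. Its levels were 8.48 and 8.17 in WT, 8.71 and 8.93 in KO, and 7.54 and 8.28 in KOWI, and WT and KOWI overlapped. KOWI over KO was -1.16 and -0.65 (limma adjusted p = 0.227), and KOWI over WT was -0.94 and 0.11 (limma adjusted p = 0.438). Sult1d1, a dopamine and eicosanoid sulfotransferase, lost too many outlier spots on the KOWI arrays to be tested. With these spots kept, KOWI over WT was -1.82 and -2.29 at its brighter probe and -1.45 and -1.97 at the other, and KO over WT was -0.08 and -0.04 at the brighter probe. Sult1c2, with spots kept, gave -1.29 and 0.14 in KOWI over WT. Sult2b1, the cholesterol sulfotransferase of epithelia, was at -0.53 and -0.81 in KOWI over WT (limma adjusted p = 0.167). Sult2a8 (0.17 and -0.34) and Sult4a1 (0.09 and 0.13) were near 0.

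Sult1b1, Sult1d1 and Sult1e1 lie beside the UGT2 genes on chromosome 5. In mm9 the probes follow in the order Ugt2b34, Ugt2b1, Ugt2b35, Ugt2b36, Ugt2b5, Ugt2b37, Ugt2a3, Ugt2b38, Ugt2a1, Sult1b1, Sult1d1 and Sult1e1. Ugt2a1, between Ugt2b38 and Sult1b1, did not pass the test. Ugt2a3, between Ugt2b37 and Ugt2b38, was above background in no organoid channel and could show no difference. With outlier spots kept, KO over WT and KOWI over WT of Sult1d1 were -0.08 and -0.04, and -1.82 and -2.29, at its brighter probe. No difference between these neighbours was tested, and no gene passed in KO over WT.

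**Figure D4:**
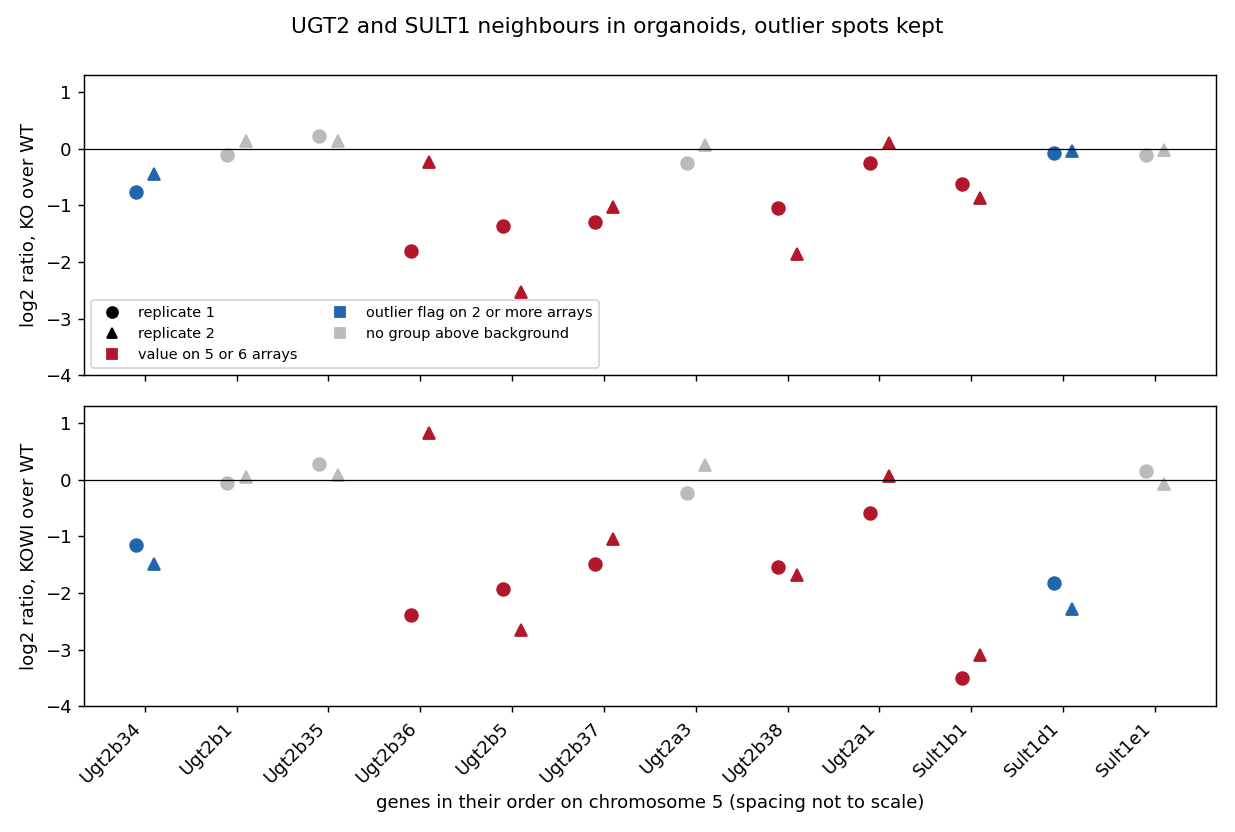
Log2 ratios to WT in organoids of 12 UGT2 and SULT1 genes in their order along chromosome 5, KO above and KOWI below, with outlier spots kept (circle, replicate 1; triangle, replicate 2). Red genes had values on 5 or 6 arrays, blue genes had outlier flags on 2 or more, and grey genes were above background in no group; Ugt2b5, Ugt2b37 and Ugt2b38 lie below 0 in both panels, and Sult1d1 lies at -0.08 and -0.04 in the upper and at -1.82 and -2.29 in the lower.

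Known factor motifs were searched in the 250 upstream bases on both strands, as letters only. The core of the antioxidant response element (TGACNNNGC) was in 6.58% of 76 member promoters and 10.2% of all 32851, and the core of the xenobiotic response element bound by AHR (GCGTG) in 19.7% and 28.2%. An HNF1 site (GTTAAT) was in 17.1% and 6.43%, a CDX site (TTTATNG) in 10.5% and 9.81%, and an HNF4 site (CAAAGTNCA) in 0% and 1.19%. The decamer bound by p53 was in 5.26% and 7.13%. Promoters were in the table for 60 of the 70 genes and for 5 of the 6 lower ones, not for Ugt1a6b. Of these 5, Sult1b1 held the AHR core at 1 of its starts and Nat8f5 the HNF1 letters. The 3 promoters printed above held none of the 6 motifs.

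Among the 18 GST and MGST genes tested in the organoids, no comparison passed the threshold in any class, which with 2 samples a group does not show that they were unchanged. The mu class (Gstm genes), abundant in liver and gut, had 5 genes tested, with mean log2 KO over WT between 0.17 and 0.39. Gstm1 stood at 14.75 and 14.89 in WT, 15.13 and 15.28 in KO, and 15.03 and 14.79 in KOWI (KO over WT 0.39 and 0.38, limma adjusted p = 0.964). KO samples lay above both WT samples for Gstm1, and KOWI overlapped WT. The brightest Gstm1 probe maps to chromosome 5, away from the Gstm cluster on chromosome 3. In KOWI over WT the mu class ran from 0.00 to 0.34, the pi class (Gstp genes) from -0.13 to -0.03 and the theta class from -0.04 to -0.03. Gstp1 and Gstp2 share a probe listing, so they may report the same RNA.

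Gsta2, an alpha class enzyme that reduces lipid peroxides, was at 16.03 and 16.42 in WT, 15.78 and 16.19 in KO, and 15.97 and 15.92 in KOWI (KOWI over WT -0.06 and -0.50, limma adjusted p = 0.461). Gsta3, the alpha enzyme linked to steroid isomerisation, differed between replicates more than between groups. Its levels were 10.98 and 12.41 in WT, 11.15 and 11.41 in KO, and 11.66 and 10.27 in KOWI. KOWI over WT was 0.69 in replicate 1 and -2.14 in replicate 2 (limma adjusted p = 0.566), and another probe gave 1.15 and -2.97. The opposite signs were thus seen at both probes. Mgst2, a leukotriene C4 synthase of membranes, also went opposite ways, at 0.74 and -0.91 (limma adjusted p = 0.948). Gsto1, which reduces dehydroascorbate, gave -0.46 and -0.09 at its brightest probe. Its other probe, also above background in every channel, gave -0.93 and -0.87 and was not tested by itself. Gsto2 gave 0.28 and 0.56. Gstz1, an enzyme of tyrosine breakdown, gave -0.44 and -0.25 at the probe tested and -1.35 and 0.52 at a dimmer one. None of these 3 genes passed, with limma adjusted p-values of 0.434, 0.41 and 0.399.

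Among the acetyltransferases, Nat8f5 stood at 9.09 and 8.34 in WT, 7.90 and 7.09 in KO, and 7.40 and 6.89 in KOWI. With outlier spots dropped, both KO and both KOWI samples lay below both WT samples, and KO and KOWI overlapped. Nat8f5 fell 2.97-fold in KOWI against WT (log2 -1.69 and -1.45, SE 0.17, limma adjusted p = 0.019; 5 of 6 arrays). KO over WT was -1.19 and -1.25 (limma adjusted p = 0.338), the lowest adjusted p of any member in that comparison. With outlier spots kept, KO over WT was -1.96 and 0.29, of opposite sign, and KOWI over WT was -3.23 and -0.68. Nat8f5 was tested only because WT was above background. Its probe, at mm9 chr6:85767345-85767404, was above background in 4 of 4 WT channels, 3 KO channels and 1 KOWI channel, so its KOWI level lies near background and the size of the difference is uncertain. With the processed signal it was -4.10 (limma adjusted p = 0.0387), and over the 11 alternative settings it ran from -4.71 to -1.44. The KOWI call held in 8 of them and was lost with the deposited ratios, with outlier spots kept and without the replicate number in the model.

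Nat8f2 and Nat8f4, which share a probe listing, were lower by less. Nat8f2 had 9.95 and 10.04 in WT, 9.91 and 9.03 in KO, and 9.13 and 9.09 in KOWI (KOWI over WT -0.82 and -0.95, limma adjusted p = 0.136). Nat8f4 gave -0.63 and -0.83 (limma adjusted p = 0.171). In both genes KO replicate 1 sat with WT and KO replicate 2 with KOWI. Nat8 itself and Nat8f1 lost spots; with these kept their KOWI over WT ratios were -2.98 and 0.45, and -1.28 and 0.22. Nat2, which acetylates aromatic amines, had 12.15 and 12.47 in WT, 12.05 and 12.01 in KO, and 10.83 and 11.59 in KOWI. Its KOWI over WT ratios of -1.33 and -0.89 missed the threshold (2.15-fold lower, SE 0.23, limma adjusted p = 0.0591). Nat10 gave 0.21 and 0.76 (limma adjusted p = 0.239).

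With outlier spots kept, the 11 organoid members that lost spots had KOWI over WT ratios below 0 in both replicates for 4 genes (Sult1d1, Ugt2b34, Gsta4 and Gstk1), above 0 in both for Gstt1, and of opposite sign for 6. These values carry no test.

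In KO against WT organoids no member passed, and neither did any of the 11334 genes (0% called). The smallest adjusted p in limma was 0.338 among members and 0.0658 among all genes. At an unadjusted p under 0.05 there were 5 lower members, Nat8f5, Ugt2b5, Ugt2b37, Ugt2b38 and Sult1b1, and none higher, where 606 of all genes (5.35%) passed, 1.36% lower and 3.99% higher. With arrays taken as independent, which understates the spread between samples, 6 members were lower: these 5 and Ugt1a6a, where 6.26% of all genes passed. Of these, Nat8f5, Ugt1a6a, Ugt2b37 and Ugt2b38 were tested only because WT was above background, so these counts are not evidence of a direction. The member median was -0.08 and that of all genes 0.06. Ugt2b5 alone passed without KO replicate 1 (log2 -2.30, limma adjusted p = 0.0421).

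In colon tissue after DSS no member passed either, nor did any of 13152 genes (0% called; 14.8% at an unadjusted p under 0.05). The highest and lowest ratios both belonged to the SULT1 family. Sult1e1, the estrogen sulfotransferase, had levels of 8.18 and 8.47 in the WT mice and 10.48 and 10.61 in the KO mice. Both KO mice were above both WT mice, by 2.31 and 2.14 on the log2 scale (mean 2.22, 4.67-fold, SE 0.08, limma unadjusted p = 0.000229, adjusted p = 0.248). In organoids it was above background in no channel. Sult1d1 went the other way, with 11.11 and 11.55 in WT and 9.73 and 10.84 in KO (log2 -1.38 and -0.71, limma adjusted p = 0.283). Both KO mice were below both WT mice. A brighter Sult1d1 probe with an outlier spot gave -1.63 and -0.84 without that spot, and -1.63 and 0.98 with it.

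**Figure D5:**
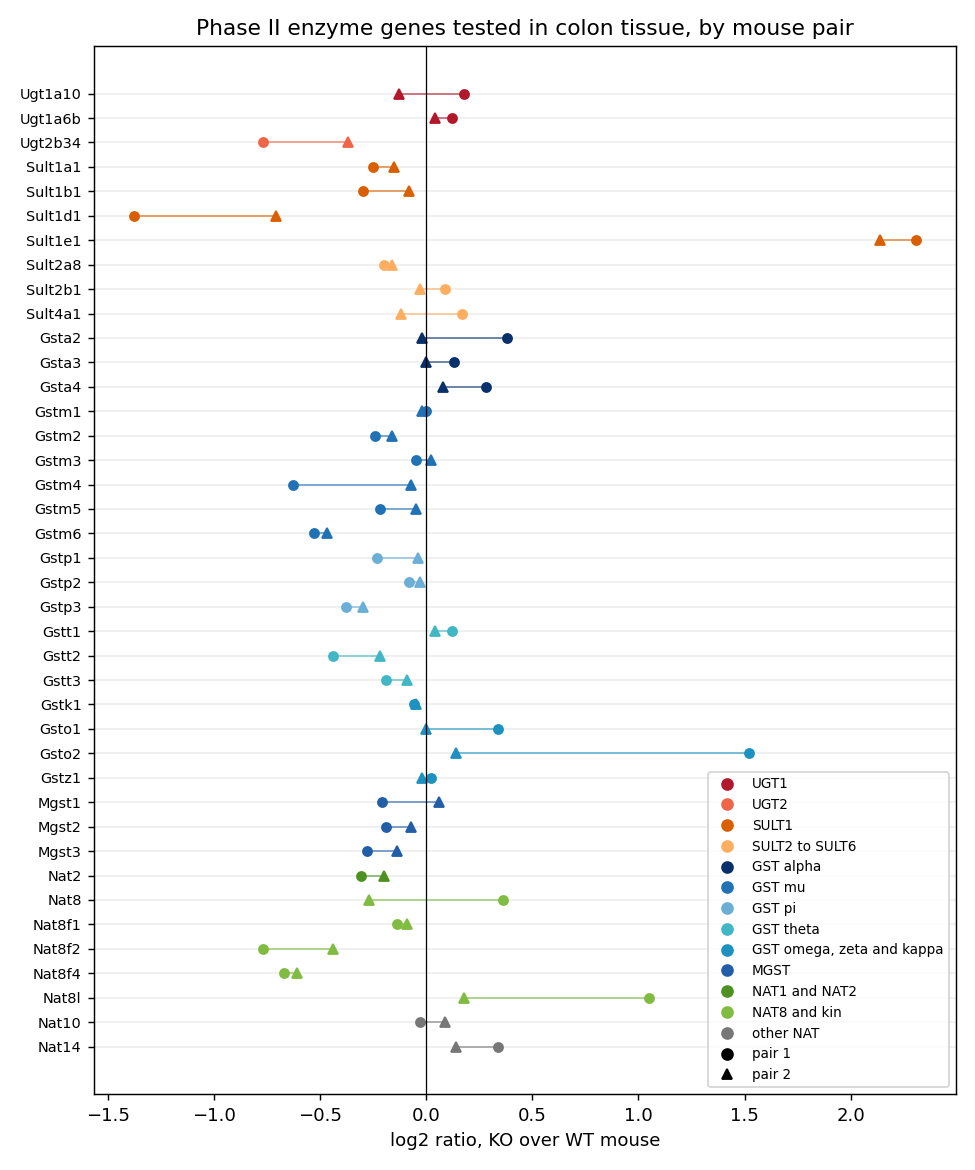
Log2 KO over WT ratios of the 40 phase II genes tested in colon tissue, by mouse pair (circle, pair 1; triangle, pair 2), coloured by enzyme family. Sult1e1 lies at 2.31 and 2.14 and Sult1d1 at -1.38 and -0.71; no gene passed the adjusted threshold.

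Sult1b1 in tissue depended on the probe. Its brighter probe gave 15.41 and 15.60 in WT and 15.11 and 15.52 in KO (log2 -0.30 and -0.08, limma adjusted p = 0.452). The dimmer probe gave -1.91 and -1.27. Both were negative in both pairs, and they differed in size by more than the pairs did.

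Other tissue values were smaller. Ugt2b34, the only UGT2 gene tested there, had 14.71 and 14.53 in WT and 13.93 and 14.16 in KO (log2 -0.77 and -0.37, limma adjusted p = 0.313). Nat8f4 gave -0.67 and -0.61 (limma adjusted p = 0.248) and Nat8f2 gave -0.77 and -0.44 (limma adjusted p = 0.282). Gstm6 was at 11.75 and 11.69 in WT and 11.22 in both KO mice (limma adjusted p = 0.248). In these 4 genes both KO mice were below both WT mice. Gsto2 (1.52 and 0.14) and Nat8l (1.05 and 0.18) were high in pair 1 only, and Nat8l differed more between the WT mice (10.19 and 12.48) than between genotypes. The brightest Ugt1a6b probe, listed for 4 genes, gave 0.12 and 0.04 in tissue. The next probe gave 0.28 and 0.07, and the probe listed for Ugt1a6b alone gave 0.65 and 0.09. Over the 40 genes the median was -0.06, beside 0.00 over all genes, and at an unadjusted p under 0.05 there were 8 lower and 1 higher member (7.13% and 7.65% of all genes). Gstp3, one of the 8, was tested only because WT was above background. With arrays taken as independent, Gstm6, Nat8f2, Nat8f4 and Sult1d1 were lower and Sult1e1 higher, where 7.09% of all genes passed.

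The KO effect in tissue was set against that in organoids for genes read from the same probe in both. These were 26 of the 29 members tested in both experiments. None differed past the threshold, nor did any of 8860 genes (0% called; 12.6% at an unadjusted p under 0.05). Gstt2, a theta class enzyme, had the smallest p: -0.44 and -0.22 in tissue and 0.44 and 0.21 in organoids (difference -0.66, SE 0.16, limma adjusted p = 0.297). The mu class means were all negative in tissue (-0.50 to -0.01, 6 genes) and all positive in organoid KO (5 genes). No gene passed in either or in the test of the difference. That test left out Gstm5, not tested in organoids, and Gstm6, read from different probes. For Gstm1 that difference was -0.39 (limma adjusted p = 0.353).

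Genes that supply or undo the conjugation reactions were read from lists, in KOWI against WT, where 5.41% of all genes passed, 2.05% lower. With the deposited ratios 4 of all genes passed and with outlier spots kept 6, so few of the calls in this comparison can hold in those settings. Of 10 genes for sulfate and UDP-glucuronate supply, 3 fell: Ugdh, which makes UDP-glucuronate (log2 -1.45 and -2.28, limma adjusted p = 0.0265), Slc35d1, which carries it into the endoplasmic reticulum (-1.50 and -1.02, limma adjusted p = 0.0377), and the sulfate transporter Slc26a2 (-1.32 and -3.0, limma adjusted p = 0.0487). The list median was -1.0. Of 11 hydrolases 2 fell, the carboxylesterases Ces2e (-2.40 and -2.73, limma adjusted p = 0.00951) and Ces2c (-1.72 and -2.04, limma adjusted p = 0.0379), with a median of -0.35. Both act before conjugation, by cleaving esters.

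Of 21 NRF2 targets outside the conjugating enzymes 4 fell, beside 2.05% of all genes: Ugdh, counted above too, the thioredoxin Txn1 (-1.48 and -1.57, limma adjusted p = 0.0257), the sulfiredoxin Srxn1 (-0.91 and -1.06, limma adjusted p = 0.0438) and the quinone reductase Nqo1 (-0.81 and -1.11, limma adjusted p = 0.0493). The list median was -0.17, and 5 of the 21 were positive. Nqo1 was also the only one of 4 AHR targets that fell. Of 21 xenobiotic receptors and partners only the fatty acid receptor Ppara fell (-1.20 and -1.39, limma adjusted p = 0.028), and Ahr had the highest ratio (0.75 and 2.22, limma adjusted p = 0.0841). None passed among 12 genes of glutathione synthesis and recycling (median -0.02), 15 of mercapturate formation and export (median -0.20) or 5 of methyl and amino acid conjugation (median -0.41). No gene of these lists passed in KOWI over KO, in KO over WT or in tissue.

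Markers of mature colonocytes were lower in KOWI than in WT too. In KOWI over WT 2.05% of all genes fell and 3.36% rose, with a median of 0.02. Of the 14 colonocyte markers tested 14 were negative (median -1.79), and 10 fell. Their summed intensity was 591825 and 681129 in WT, 408021 and 447616 in KO, and 189844 and 249156 in KOWI. In KO over WT the colonocyte marker median was -0.59, beside 0.06 over all genes, with no marker past the threshold. In KOWI over KO the marker median was -1.27, beside -0.03 over all genes. Mean ratios there were -2.55 for Sult1b1 and -1.94 for the brightest Ugt1a6b probe, which is listed for 4 genes (limma adjusted p = 0.141). With outlier spots kept, the other Ugt1a6b probes had means of -0.03 and -0.59. Ugt2b5, Ugt2b37, Ugt2b38 and Nat8f5 had -0.34, -0.11, -0.16 and -0.35 in KOWI over KO. Goblet cell markers had a median of -0.63 in KOWI over WT (3 of 11 fell) and of 0.31 in KO over WT, and stem cell markers one of 0.85 in KOWI over WT (3 of 9 rose and 1 fell). General epithelial markers had a median of -0.19 (1 of 12 fell). Fibroblast markers were dim in organoids for 9 of 10. Fewer cells of a type and less RNA per cell cannot be told apart here, and the part of the marker difference in the phase II values was not tested.

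In tissue the markers of several other cell types were higher in KO mice, none past the threshold. The median over all genes was 0.00, and no share of all genes by sign is given beside the counts below. Fibroblast markers were positive for 10 of 10 (median 0.27), adipocyte markers for 6 of 6 (median 0.54; summed intensity 20367 and 43041 in WT, 26582 and 64600 in KO), skeletal muscle markers for 9 of 9 (median 0.43; 212621 and 301098 in WT, 286087 and 365684 in KO) and squamous epithelial markers for 10 of 10 (median 0.24). General epithelial markers were negative for 11 of 11 (median -0.13), enteroendocrine markers for 9 of 9 (median -0.64) and colonocyte markers for 15 of 18 (median -0.17). Their part in the Sult1e1 and Sult1d1 values was not tested.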

How the data were processed

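RNA of 10 arrays was compared. Per the file headers, the authors read the scans with Agilent Feature Extraction 12.2.0.7 (mm9 probe coordinates) and deposited mean and background intensity, a processed intensity, a log10 ratio of Cy5 over Cy3 and outlier and background flags. A further deposited table gives log2 ratios by probe, made with limma per the submitters' processing notes; its centring stays unknown. Here, in R 4.3.3 with limma 3.58.1, mean intensity was corrected by normexp (offset 50) and loess, and outlier spots were dropped. Genes were named through RefSeq (35405 probes by accession, 9124 by symbol, 25 by synonym; 12051 unnamed). A gene was read from its brightest probe that passed the filter on background and had enough values. In tissue, 2 pair ratios were tested against 0. In organoids, 6 sample values were fitted by least squares and tested for group with replicate number as a term. P-values were adjusted by Benjamini-Hochberg over all genes (threshold 0.05). The fits were checked on simulated data. Promoters were aligned with Biopython 1.88.

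Named were members past the threshold, the highest and lowest of each family, members above background in 1 group only, and members whose probes disagreed in sign by over 0.5 on the log2 scale; others, such as per-sample values of near misses, were chosen after their values were seen. The members and lists were chosen with earlier results of these data known. One tissue label gives its Cy3 source another replicate number than its title; the title's was used. Deviations of samples with the same number were correlated at r = 0.72 in tissue and at r = 0.2, 0.171 and -0.0139 in organoids. The tissue value is from intensities of mice that shared their arrays, so it includes array effects and does not show a pairing of mice. The organoid values are from array ratios, so the tissue and organoid values cannot be compared. Precision is limited by the number of arrays.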

Additional observations from a re-analysis of the deposited data

How the results depend on the processing

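Each value was recomputed under up to 15 other settings. The number of members past the threshold changed as follows. With arrays taken as independent, which understates the spread between samples, it was 5 in tissue and 6 in organoid KO over WT. Of all genes, 7.09% and 6.26% passed there. In the same setting the number was 16 of 36 in KOWI over WT and 7 of 36 in KOWI over KO, where 37.5% and 22.6% of all genes passed. With the processed signal it was 3 in KOWI over WT (1.28% of all genes) and 0 in KOWI over KO (0%). With the deposited ratios, and with outlier spots kept, it was 0 in both. Among probes under a log2 intensity of 14 it was 0 in KOWI over KO (0.434% of all genes). Without the replicate block it was 2 in KOWI over WT (3.99%) and 1 in KOWI over KO (0.362%). Leaving out 1 sample changed the number in each organoid comparison, with 28 to 31 members tested and 1 sample left in a group.

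The member median in tissue was -0.02 without the filter and -0.18 to 0.00 leaving out 1 mouse. In KO over WT it was -0.14 with the processed signal, -0.15 with the deposited ratios, -0.29 under an intensity of 14 and -0.06 to 0.03 leaving out 1 sample. In KOWI over WT it was -0.04 without the filter, -0.67 under an intensity of 14 and -0.26 to -0.11 leaving out 1 sample. In KOWI over KO it was -0.35 with the processed signal, -0.20 with the deposited ratios, -0.08 without the filter, -0.19 with outlier spots kept, -0.34 under an intensity of 14 and -0.24 to -0.13 leaving out 1 sample.

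The test of tissue against organoids called 0 members in the 7 settings run; of these, the limit on bright probes and the centring were added to this test after seeing the data. Of named members, 21 values larger than their standard error changed sign, none of them past the threshold. Leaving out 1 mouse in tissue, Gsta4 ran from -0.04 to 0.40, Gstt1 from -0.08 to 0.23, Nat8l from -0.53 to 1.75 and Sult1b1 from -0.39 to 0.01. Leaving out 1 organoid sample in KO over WT, Sult4a1 ran from -0.05 to 0.50 and Nat8f4 from -0.73 to 0.07. In KOWI over WT, Ugt2a1 ran from -0.48 to 0.03, Gsta3 from -1.85 to 0.28 and Gstm6 from -0.07 to 0.73. In KOWI over KO, Ugt2b36 ran from -1.15 to 0.06, Ugt2b5 and Nat8f4 both from -0.69 to 0.11, Nat8f2 from -0.77 to 0.14, Gsto2 from -0.01 to 0.77, Gstp3 from -0.52 to 0.00 and Mgst3 from -0.44 to 0.08. Ugt2b36 in KOWI over KO was 0.34 with the deposited ratios and 0.23 with outlier spots kept. The cause was not tested. Signal over background limits the ratios of dim genes such as Ugt2b37 and Nat8f5 in KOWI.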
